A study of Mus musculus with 6 samples.

Results

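Matrix proteases, their inhibitors and thrombospondins were compared between 2 sorted fractions of mouse mammary cells. The genes taken were those whose symbols mark a matrix metalloproteinase (Mmp), an ADAM, an ADAMTS, 1 of the TIMPs 1 to 4 or 1 of the thrombospondins 1 to 4. On the array this covered 83 of 20887 genes named through their RefSeq transcripts, and 110 of 27509 named probes. They were 22 Mmp, 19 Adamts, 34 Adam, 4 Timp and 4 Thbs genes. The choice used symbols alone and no measured value, but it was made with earlier results of these data known.

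Donor animals were virgin mice, strain C57/B6, of the genotype lgr5-egfp-ires-creert2, in which EGFP and an inducible Cre are read from the Lgr5 locus. Both fractions carried that allele, and no treatment is named for either. Both lay in the gate called P4 (Lin-negative, CD24+, CD29hi), which is enriched in basal mammary cells. EGFP then split the gate into Lgr5-positive cells (GFP+) and Lgr5-negative cells (GFP-), with 3 arrays each. Lgr5 is a receptor for R-spondins and marks stem cells in several epithelia. Ages and the number of mice behind each array are not given in the sources used here, so p-values measure the spread between these arrays. Each array set Cy5-labelled sample RNA against Cy3-labelled universal mouse reference RNA, a mix of 11 mouse cell lines. The unit throughout is the log2 ratio of sample to reference, and a log2 fold change is Lgr5-positive minus Lgr5-negative.

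MMPs, ADAMs and ADAMTSs are zinc proteases that act outside the cell or at its surface. MMPs cut collagens, laminins and other matrix proteins, and several are anchored in the membrane. ADAMs shed the outer parts of membrane proteins such as growth factor precursors and Notch receptors. ADAMTSs are secreted, carry thrombospondin repeats, and process procollagens or cut proteoglycans. TIMPs bind the active site of MMPs and, for some, of ADAMs and ADAMTSs. Thrombospondins are large secreted proteins that bind matrix, proteases and cell surface receptors without being enzymes themselves. In the mammary gland such proteases take part in duct branching and in the breakdown of the gland after lactation.

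The sample channel was dimmer in Lgr5-positive cells, with an array median of 137 to 169, than in Lgr5-negative cells, with 200 to 278, and its background was 64 to 76. The part of that difference in the results was not tested. Between 46 and 65 of the 83 genes were well above background on an array, and 0 probes were saturated. Lgr5 had log2 ratios of 4.24, 5.36 and 5.01 on the Lgr5-positive arrays and of 2.84, 4.04 and 3.31 on the Lgr5-negative ones, a difference of 1.47 (SE 0.40). The labels give each array a replicate number and do not say what arrays of the same number share. Arrays of the same number deviated together, and the pairs named below rest on this feature of the data. Each limma p with the group alone therefore stands beside the p of a fit that also takes the replicate number as a block. For Lgr5 these adjusted p-values were 0.245 and 0.0021.

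Of the 83 genes, 58 were measured well enough to be tested, that is with a Cy5 spot that the scanner software marked as well above background on 3 or more of the 6 arrays. With the group alone 2 of the 58 passed an adjusted p of 0.05 in limma (3.45%), against 0.612% of all 15680 genes tested. Adamts2 rose and Mmp15 fell, where 0.0255% of all genes rose and 0.587% fell. With the replicate block 8 passed (13.8%), against 7.72% of all genes. Of these Adamts2, Thbs3, Mmp2 and Adam19 rose, and Mmp15, Mmp3, Adam10 and Adamts4 fell. The 4 that rose compare with 2.1% of all genes rising, and the 4 that fell with 5.61% falling. The groups of 3 arrays did not overlap for 12 of the 58, which is 20.7% against 12.2% of all genes. In 6 of them Lgr5-positive cells were higher (4.06% of all genes) and in 6 lower (8.14% of all genes). At an unadjusted p under 0.05 there were 7 members with the group alone, against 8.2% of all genes.

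Most of the genes lay close to no difference. The 58 log2 fold changes ran from -1.41 to 1.47, and 45 of them lay within 0.5 of 0. Their median was 0.047, beside 0.010 for all genes, and the medians within the pairs of replicates 1, 2 and 3 were 0.045, -0.022 and 0.052. Under median centring the members' median was -0.158 where that of all genes was -0.29, so it turned below 0 while it lay above the median of all genes in both settings. By family the median was 0.10 for 14 tested Mmp genes, 0.087 for 15 Adamts genes, 0.020 for 21 Adam genes, -0.15 for 4 Timp genes and 0.055 for 4 Thbs genes. The genes that passed in either fit moved in both directions and came from all families except the TIMPs.

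**Figure D1:**
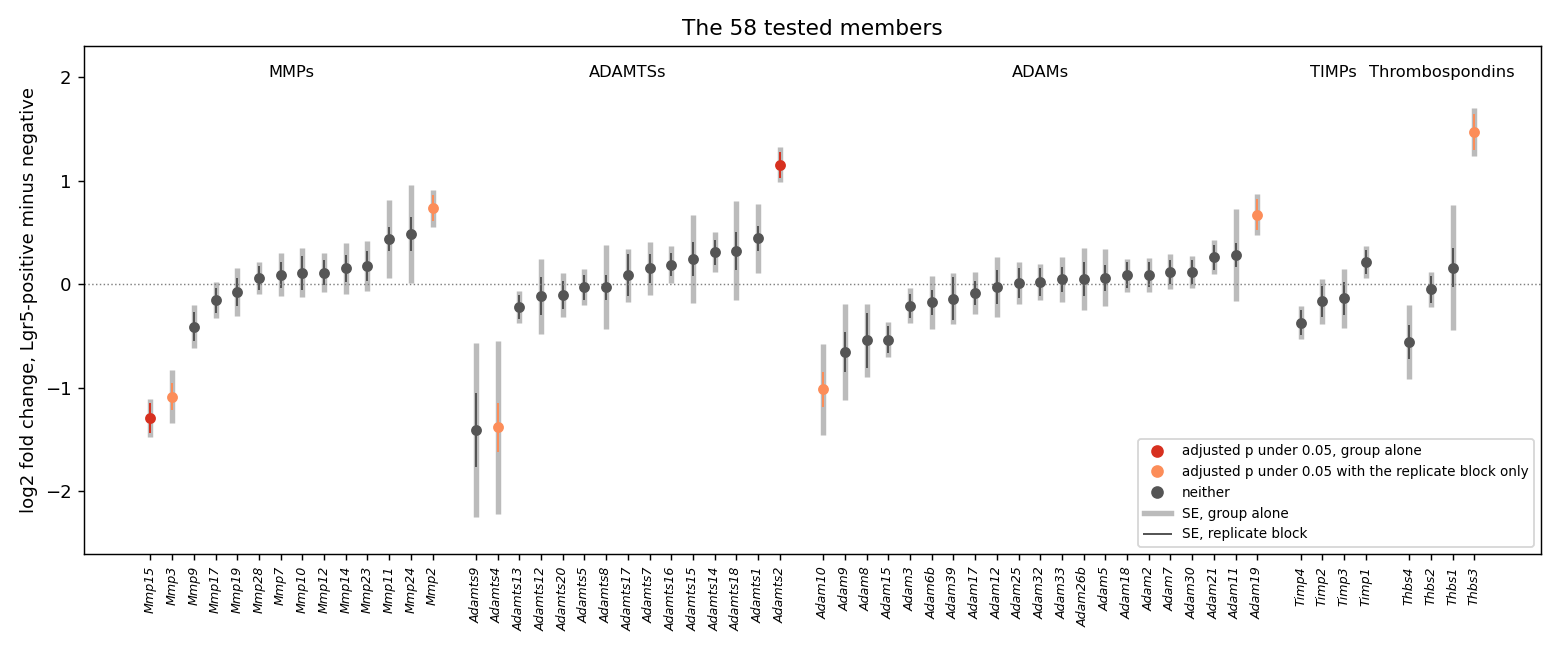
Log2 fold change (Lgr5-positive minus Lgr5-negative, y axis) of each of the 58 tested genes, ordered by value within its family (x axis); wide grey bars are SEs with the group alone and thin bars SEs with the replicate block. Adamts2 and Mmp15 pass with the group alone, 6 more pass with the block, and 45 of the 58 values lie within 0.5 of 0.

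Markers of other cell types moved on the same arrays. All 11 endothelial markers were tested, with a mean log2 ratio of 1.40 to 2.53 on the Lgr5-positive and of 3.33 to 3.84 on the Lgr5-negative arrays, a median difference of -2.04, and 3 lower with the group alone (8 with the block). Of the 3, Tie1 was well above background on the Lgr5-negative arrays only and was tested through that group alone. In the block fit 5.61% of all genes were lower and 2.1% higher, against which the counts of each marker list stand. Fibroblast markers (10 tested, 5 lower and 1 higher with the block) averaged -0.72 to -0.44 and -0.32 to -0.01. Pericyte markers (8 tested, 4 lower with the block) averaged -0.15 to -0.07 and 0.51 to 0.61, and luminal markers (10 tested, 4 lower with the block) 0.35 to 0.75 and 0.82 to 1.46. Leukocyte markers (9 tested, 2 lower with the block) overlapped between the groups, at -0.78 to -0.01 and -0.73 to 0.16. Cd14 stands in both the luminal and the leukocyte list and is counted as lower in each. Basal markers (10 tested, 3 higher with the block) averaged 3.53 to 3.87 and 3.28 to 3.38, and the defining basal keratins Krt14 and Krt5 were far above the reference in both fractions. None of the defining markers was at 0, since Pecam1, Cdh5, Pdgfra, Col1a1, Rgs5, Ptprc and Krt8 were also well above background on all 6 arrays. The part of these cells in the results below was not tested. In sorted pools, fewer cells of a type and less RNA per cell cannot be told apart.

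**Figure D2:**
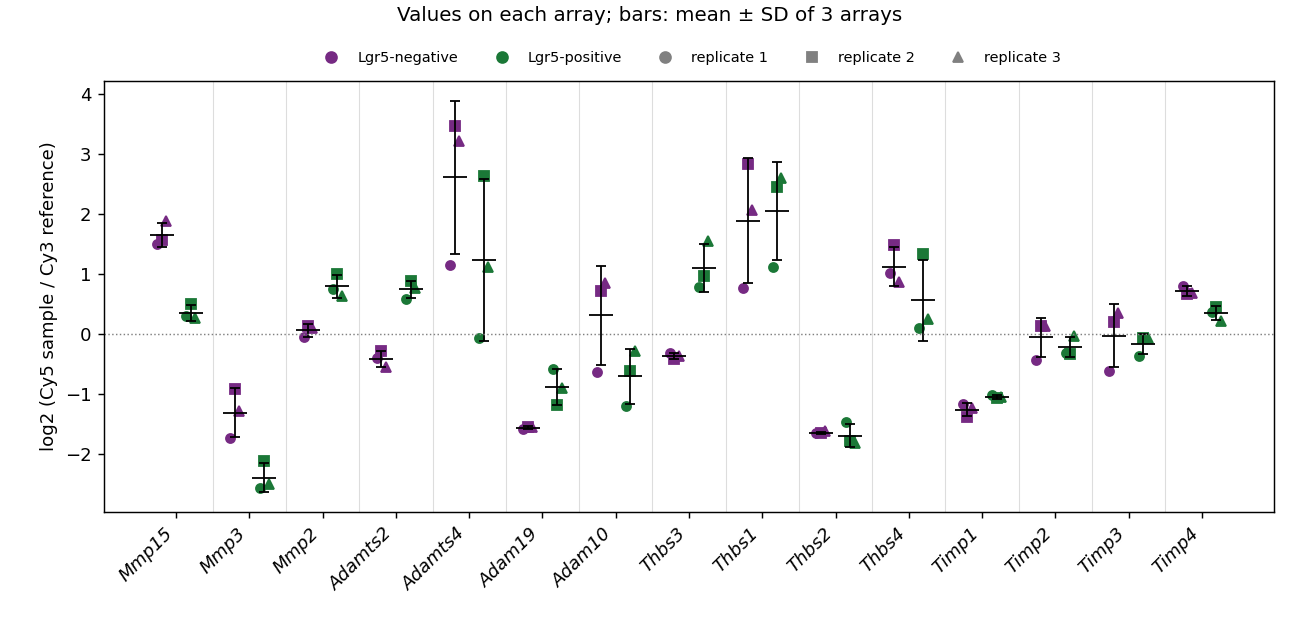
Log2 ratio of sample to reference (y axis) on each array for the 8 genes that pass in either fit and for the other thrombospondins and the TIMPs (x axis); marker shape gives the replicate number, and bars are the mean and SD of 3 arrays. The groups do not overlap for Mmp15, Mmp3, Mmp2, Adamts2, Adam19, Thbs3, Timp1 and Timp4. Adamts4 and Thbs1 have the widest ranges of pair means among the genes shown (2.51 and 1.69).

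Among the MMPs, the collagenases that open fibrillar collagen were too dim to test. Mmp1a was well above background on 2 arrays, Mmp1b on 1, and Mmp8 and Mmp13 on none. The gelatinases, which cut denatured collagen and the type IV collagen of basement membranes, pointed in opposite directions. Mmp2 (gelatinase A) had log2 ratios of 0.75, 1.01 and 0.63 on the Lgr5-positive arrays and of -0.05, 0.14 and 0.10 on the Lgr5-negative arrays. Every Lgr5-positive array was above every Lgr5-negative one, and the difference was 0.73 (SE 0.18, 1.66-fold). It passed with the block (SE 0.13, adjusted p = 0.019) and not with the group alone (adjusted p = 0.185). Mmp9 (gelatinase B) was at -1.68, -1.71 and -1.61 against -1.47, -1.42 and -0.89. Its groups did not overlap either, but the difference of -0.41 passed neither fit (adjusted p = 0.782 and 0.154), and only 1 of the 3 Lgr5-positive arrays was well above background. With the scanner's own ratio Mmp9 was at -1.03 (adjusted p = 0.055 with the block).

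Stromelysins have a broad choice of substrates and can activate other MMPs. Mmp3 (stromelysin 1) was below the reference on all 6 arrays, at -2.55, -2.11 and -2.50 in Lgr5-positive and -1.73, -0.91 and -1.27 in Lgr5-negative cells. The groups did not overlap, and the difference was -1.09 (SE 0.26, 2.12-fold lower), with an adjusted p of 0.175 with the group alone and 0.0055 with the block (SE 0.13). Mmp10 (stromelysin 2) was at 0.11 (SE 0.23; adjusted p = 0.767 with the block). Mmp11 (stromelysin 3) was at -0.84, -1.47 and -1.94 against -1.30, -1.86 and -2.41, a difference of 0.44 that recurred in each pair (0.45, 0.39 and 0.46) and missed the threshold with the block (adjusted p = 0.072). A second Mmp11 probe gave 0.26.

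Mmp3 lies in a row of 10 Mmp genes on chromosome 9, of which 9 were on the array and 4 were tested. Beside Mmp3 these were Mmp10, Mmp12 (macrophage elastase, 0.11) and Mmp7 (matrilysin, 0.09), and none of those 3 passed either fit. Whether Mmp3 differed from them in response was not tested. The promoters of Mmp3 and of its tested neighbours Mmp10 and Mmp12 are shown because they share motifs. They come from RefSeq (GRCm38.p6), run from 250 bases before to 50 after the annotated start, and lie on the plus strand at chr9:7445572-7445871, chr9:7502092-7502391 and chr9:7347124-7347423; the last is 1 of 2 annotated Mmp12 starts. Capitals mark matches to the AP-1 motif TGANTCA, the TATA motif TATAAA, the GC box GGGCGG or the CCAAT box on either strand.
Mmp3: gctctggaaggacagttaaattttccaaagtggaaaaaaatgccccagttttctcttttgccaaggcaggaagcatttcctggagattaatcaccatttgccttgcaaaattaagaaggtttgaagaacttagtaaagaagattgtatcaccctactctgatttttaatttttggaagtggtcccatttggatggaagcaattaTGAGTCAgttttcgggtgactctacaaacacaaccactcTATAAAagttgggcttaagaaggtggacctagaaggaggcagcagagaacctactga
Mmp10: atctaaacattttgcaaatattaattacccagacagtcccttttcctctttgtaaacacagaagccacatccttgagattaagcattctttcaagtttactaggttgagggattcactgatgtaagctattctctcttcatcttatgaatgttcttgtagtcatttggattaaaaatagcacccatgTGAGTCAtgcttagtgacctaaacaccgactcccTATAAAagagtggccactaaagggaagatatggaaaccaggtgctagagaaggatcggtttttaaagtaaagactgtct
Mmp12: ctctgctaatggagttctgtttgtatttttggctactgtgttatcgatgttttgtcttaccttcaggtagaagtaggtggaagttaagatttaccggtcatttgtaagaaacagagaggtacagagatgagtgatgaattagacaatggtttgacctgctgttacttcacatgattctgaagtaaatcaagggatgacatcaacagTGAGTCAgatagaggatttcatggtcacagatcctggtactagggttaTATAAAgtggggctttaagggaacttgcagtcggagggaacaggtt
The AP-1 match is TGAGTCA in each of the 3, beginning at -46 in Mmp3, -63 in Mmp10 and -44 in Mmp12, counted from the start. The TATAAA match begins at -7, -29 and 5. The other Mmp12 start, at chr9:7344147-7344446, held neither motif. Of the 9 genes of the row on the array, 8 held both motifs in this window at 1 start or more, and Mmp8 held TATAAA alone. AP-1 matches were found in 7.81% and TATAAA matches in 13.6% of all 32851 promoters of this length, and in 22.8% and 28.1% of the 57 promoters that matched 52 of the 83 genes. Among the 43 matched genes outside the row the shares were 11.6% and 16.3%. A match describes the letters only, and no binding was measured.

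Membrane-type MMPs act at the cell surface, and several of them activate pro-Mmp2. Mmp15 (MT2-MMP) was at 0.30, 0.51 and 0.26 on the Lgr5-positive arrays and at 1.51, 1.56 and 1.89 on the Lgr5-negative arrays. The groups did not overlap, and all 6 arrays lay above the reference. The log2 fold change was -1.29 (SE 0.18, 2.45-fold lower; limma adjusted p = 0.045 with the group alone and 0.0045 with the block). One of the 3 Lgr5-positive arrays was not well above background, and with the scanner's own ratio the value was -1.90 (adjusted p = 0.104, and 0.052 with the block). Its neighbours in the genome, Usb1 at 0.29 and Cfap20 at -0.07, did not pass. Mmp24 (MT5-MMP) was at 2.54, 2.05 and 0.87 against 1.90, 1.29 and 0.81, a difference of 0.49 (SE 0.47; adjusted p = 0.142 with the block) within a wide spread between replicate numbers. Mmp14 (MT1-MMP), an activator of Mmp2, was at 0.15 (SE 0.25), and Mmp17 (MT4-MMP) at -0.16 (SE 0.17). The promoter of Mmp15, at chr8:95352046-95352345 (plus strand), is shown as the start region of the only protease that fell in both fits, with its single GC box in capitals, beginning at -106.
Mmp15: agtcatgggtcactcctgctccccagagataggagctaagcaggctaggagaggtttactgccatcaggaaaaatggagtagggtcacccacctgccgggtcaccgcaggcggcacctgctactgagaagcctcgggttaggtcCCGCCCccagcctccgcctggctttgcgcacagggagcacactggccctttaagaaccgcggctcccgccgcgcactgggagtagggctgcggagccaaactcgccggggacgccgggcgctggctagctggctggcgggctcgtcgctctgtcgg
It holds 66.0% G and C, beside a median of 52.7% over all promoters and 55% over those of the members, and has neither the AP-1 nor the TATAAA letters seen in Mmp3.

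The remaining 5 tested MMPs, Mmp7, Mmp12, Mmp19, Mmp23 and Mmp28, lay between -0.08 and 0.18. Mmp23 was at 0.67, 0.62 and -0.07 against 0.31, 0.30 and 0.08, and Mmp12 at 0.56, 0.32 and 0.18 against 0.46, 0.10 and 0.16. Both sets of values overlapped between the groups.

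Among the ADAMTS proteases the N-proteinases, which remove the amino-terminal propeptide of fibrillar procollagens, held the largest rise in the family. Adamts2 was at 0.59, 0.88 and 0.77 on the Lgr5-positive arrays and at -0.40, -0.28 and -0.54 on the Lgr5-negative arrays. It lay above the reference in each Lgr5-positive and below it in each Lgr5-negative sample. The log2 fold change was 1.15 (SE 0.17, 2.22-fold; limma adjusted p = 0.049 with the group alone and 0.0038 with the block), with 0.99, 1.16 and 1.31 in the pairs. A dimmer Adamts2 probe, well above background on all 6 arrays, did not show it, at -0.04, 0.22 and -0.10 against -0.04, 0.11 and -0.01, and the mean of both probes was 0.58. The genes next to Adamts2, Rufy1 at -0.26 and Zfp354c at 0.59, did not pass, the second narrowly (limma adjusted p = 0.467 and 0.052 with the block). Adamts14, a second N-proteinase, was at -1.80, -2.30 and -2.04 against -2.21, -2.47 and -2.37, a difference of 0.31 (adjusted p = 0.957, and 0.203 with the block; 0.03 on a second probe), and Adamts3, the remaining one, was above background on no array. The Adamts2 promoter, at chr11:50601835-50602134 (plus strand), is shown for its contrast with the promoters of Mmp3, Mmp10 and Mmp12, though not of Mmp15.
Adamts2: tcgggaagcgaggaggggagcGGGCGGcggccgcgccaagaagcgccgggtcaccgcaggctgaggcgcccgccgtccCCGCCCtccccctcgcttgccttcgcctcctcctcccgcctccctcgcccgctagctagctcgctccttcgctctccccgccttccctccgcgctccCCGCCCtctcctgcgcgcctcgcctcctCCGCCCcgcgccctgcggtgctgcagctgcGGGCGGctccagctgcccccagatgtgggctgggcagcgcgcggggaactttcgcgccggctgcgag
It is 77.3% G and C, with 5 GC boxes in capitals between -229 and -17. GC boxes were found in 43.9% of the members' promoters and in 35.7% of all promoters.

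Proteoglycan-cleaving ADAMTSs cut aggrecan and versican. Adamts4 was at -0.06, 2.63 and 1.11 in Lgr5-positive and at 1.15, 3.47 and 3.22 in Lgr5-negative cells, so the groups overlapped. Within each pair, however, the Lgr5-positive array was the lower one, by 1.20, 0.84 and 2.10. The difference of -1.38 fell short with the group alone (SE 0.83, adjusted p = 0.936) and passed with the block (SE 0.23, adjusted p = 0.018). Adamts9 followed the same layout, at -0.95, 0.46 and 0.28 against -0.53, 1.71 and 2.83. Its difference of -1.41 was the largest fall among the members, but did not pass (SE 0.84, adjusted p = 0.932 with the group alone; SE 0.35, adjusted p = 0.064 with the block). Adamts1, which lay at least 1 log2 unit above the reference on all 6 arrays, was at 0.44 (SE 0.33; adjusted p = 0.090 with the block). The other 4 of this group, Adamts5, Adamts8, Adamts15 and Adamts20, lay between -0.11 and 0.24, with 0.36 on a second Adamts8 probe that did not pass either.

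The 6 tested members of the remaining ADAMTSs lay between -0.22 and 0.32, and none passed. Adamts13, which trims von Willebrand factor, was at 0.45, 0.24 and 0.30 against 0.58, 0.51 and 0.56. Its groups did not overlap, but the difference was small (-0.22, SE 0.16; adjusted p = 0.343 with the block). Adamts16 was at 0.41, 0.10 and 0.31 against 0.28, -0.10 and 0.08. Adamts7 and Adamts12, which cut the cartilage protein COMP, were at 0.15 and -0.12. Adamts17 was at 0.09 on its brightest probe and at -0.23 on another.

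ADAMs with a working catalytic site and wide expression tended to be measured well, with 8 of 9 tested. Adam10, a main sheddase of Notch receptors and cadherins, was at -1.20, -0.62 and -0.28 in Lgr5-positive and at -0.63, 0.72 and 0.85 in Lgr5-negative cells. The groups overlapped slightly through replicate 1 of the Lgr5-negative cells, while each pair differed in 1 direction (-0.57, -1.34 and -1.14). The difference was -1.01 (SE 0.44, adjusted p = 0.647 with the group alone; SE 0.17, adjusted p = 0.017 with the block). Adam17, the sheddase of TNF and of several EGF receptor ligands, was at -0.09 (SE 0.20; adjusted p = 0.740 with the block). Adam9, a further sheddase, was at -0.65 (SE 0.46; adjusted p = 0.107 with the block).

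Adam19, a sheddase of neuregulins, went the other way. It was at -0.58, -1.17 and -0.89 against -1.57, -1.55 and -1.54, so that all Lgr5-positive arrays lay above the narrow range of the Lgr5-negative ones. The difference of 0.67 (SE 0.20, adjusted p = 0.307) passed with the block (SE 0.15, adjusted p = 0.044). With any 1 of the 3 pairs left out it no longer did (adjusted p = 0.093 to 0.113). Adam15 was at 0.49, 0.43 and 0.41 against 0.89, 0.87 and 1.17, without overlap, and at -0.53 (SE 0.17) it came close with the block (adjusted p = 0.058). Adam8, Adam12 and Adam33 lay between -0.54 and 0.05.

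ADAMs without a catalytic site act in adhesion rather than cleavage. Of the 3 outside the testis group only Adam11 was tested, at 2.56, 1.34 and 1.75 against 2.40, 0.98 and 1.42 (0.28, SE 0.45). Its replicate 1 arrays were the highest in both groups, and a second Adam11 probe gave -0.04. The ADAMs known mainly from testis and sperm, with the few left over, made up 22 genes, of which 12 were tested. Their differences lay between -0.21 for Adam3 and 0.26 for Adam21, and none passed in either fit. Adam21 was at 0.53, 0.36 and 0.38 against 0.18, 0.03 and 0.27, and Adam3, a sperm surface protein, at -0.45, -0.24 and -0.25 against -0.28, 0.01 and -0.05. A second Adam3 probe gave 0.13. Several of these genes have close copies, so a probe may read more than 1 of them.

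All 4 TIMPs were tested, and none passed in either limma fit. Timp1 was at -1.0, -1.07 and -1.05 in Lgr5-positive and at -1.16, -1.38 and -1.22 in Lgr5-negative cells, a difference of 0.21 (SE 0.16; adjusted p = 0.360 with the block). Timp4 was at 0.37, 0.45 and 0.22 against 0.81, 0.66 and 0.69, a difference of -0.37 (SE 0.16; adjusted p = 0.623 with the group alone and 0.132 with the block). The groups did not overlap for these 2, in opposite directions. Timp3, which stays bound to the matrix and also inhibits Adam17, was at -0.36, -0.06 and -0.07 against -0.62, 0.20 and 0.36, a difference of -0.14 (SE 0.28). Timp2, which inhibits Mmp2 and helps Mmp14 to activate it, was at -0.31, -0.32 and -0.03 against -0.43, 0.14 and 0.13, a difference of -0.17 (SE 0.22). The Timp2 probes differed in size. A second one was at 0.12, -0.09 and -0.50 against 0.40, 0.55 and 1.31, without overlap, at -0.91 (adjusted p = 0.597, and 0.119 with the block).

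The 4 thrombospondins fall into the trimers Thbs1 and Thbs2, which bind CD36 and CD47 and restrain blood vessel growth, and the pentamers Thbs3 and Thbs4. Thbs3 had the largest rise of all members. It was at 0.79, 0.97 and 1.56 on the Lgr5-positive and at -0.32, -0.42 and -0.35 on the Lgr5-negative arrays. All Lgr5-positive arrays lay above the reference and all Lgr5-negative arrays below it. The log2 fold change was 1.47 (SE 0.23, 2.77-fold), and it passed with the block (SE 0.17, adjusted p = 0.0048) but not with the group alone (adjusted p = 0.056). A second Thbs3 probe gave 1.496, from 0.58, 0.97 and 1.34 against -0.69, -0.48 and -0.43. The genes on either side of Thbs3, Mtx1 at -0.03 and Muc1 at 0.05, did not pass. The Thbs3 promoter, at chr3:89214930-89215229 (plus strand), is shown as the start region of the gene with the largest rise, with a CCAAT box read on the minus strand at -98 and a GC box at -21 in capitals.
Thbs3: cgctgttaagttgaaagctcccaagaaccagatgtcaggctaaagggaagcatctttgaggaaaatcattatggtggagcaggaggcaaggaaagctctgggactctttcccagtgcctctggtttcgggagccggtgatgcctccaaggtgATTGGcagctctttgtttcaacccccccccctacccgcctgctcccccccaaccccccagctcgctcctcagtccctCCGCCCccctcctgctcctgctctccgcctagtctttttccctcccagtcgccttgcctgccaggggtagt
It is 59.0% G and C, and CCAAT letters were found in 38.6% of the members' promoters and in 37.4% of all promoters.

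The other thrombospondins did not pass. Thbs4 was at 0.10, 1.33 and 0.26 against 1.02, 1.49 and 0.87, a difference of -0.56 (SE 0.36, adjusted p = 0.971; 0.102 with the block), with only 1 of 3 Lgr5-positive arrays well above background and -1.11 with the scanner's own ratio (adjusted p = 0.140 with the block). Thbs1 was at 1.12, 2.45 and 2.59 against 0.78, 2.83 and 2.08, a difference of 0.16 (SE 0.60). It was above the reference on all 6 arrays, and its replicate 1 arrays were the lowest in both groups. Thbs2 was at -1.46, -1.78 and -1.81 against -1.65, -1.64 and -1.62 (-0.05, SE 0.17), at least 1 log2 unit below the reference on all 6 arrays.

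Pair means differed widely between replicate numbers for some members. The mean of a same-numbered pair ranged over more than 1 log2 unit for 11 of the 58 genes. For 46 of the 58 that range was larger than the difference between the groups. A range over pair means tends to exceed a difference of group means even without a replicate effect, so the 46 says little about the replicate number. Neither count was taken over all genes. Adamts4 had the widest range of pair means (2.51), followed by Adamts9 (2.29), Thbs1 (1.69) and Mmp24 (1.38). For Adamts4, Adamts9, Thbs1, Adam9 and Adam10 the replicate 1 pair was the low one, and for Mmp24, Adam11 and Mmp11 the high one.

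**Figure D3:**
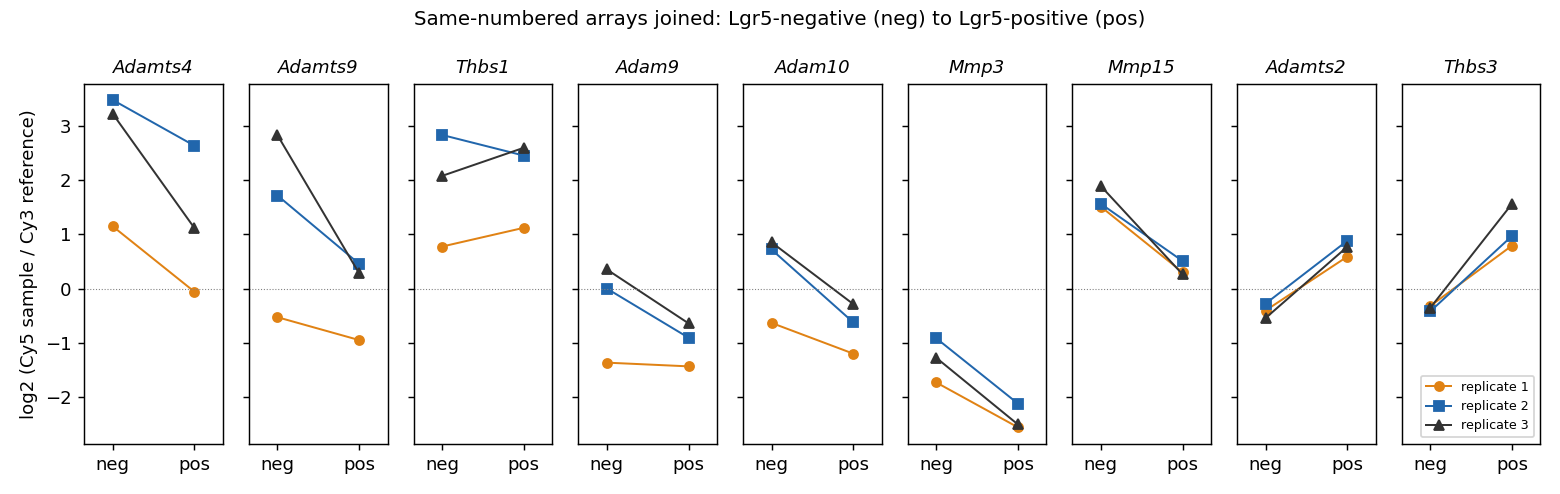
Log2 ratio of sample to reference (y axis) of 9 genes in Lgr5-negative (neg) and Lgr5-positive (pos) cells, with arrays of the same replicate number joined. Adamts4 and Adam10 fall in each pair from different starting levels, and the Thbs1 pairs move in both directions. The groups of Mmp15, Adamts2 and Thbs3 do not overlap, and they are narrow except for the Lgr5-positive group of Thbs3.

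Against the cell line reference, 24 of the 58 tested genes were higher on all 6 arrays and 10 were lower on all 6. Of all 15680 genes, 4216 were higher and 5186 lower on all 6. Adamts1 and Adamts18 lay at least 1 log2 unit above it on each array. Adam8, Timp1, Adamts14 and Thbs2 lay at least 1 log2 unit below it on each array. By the way they were picked, these genes lie on 1 side of the reference in both fractions.

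Other genes of matrix turnover were read from lists chosen by function. With the group alone none of their members passed. With the block, 5.61% of all genes fell and 2.1% rose, which is the background for the counts of each list. In that fit the 10 tested genes of the plasminogen system, which activates several MMPs, gave 0 calls (median 0.091). Serpinb2, an inhibitor of plasminogen activators, was at -2.09 (limma adjusted p = 0.094 with the block). Only 1 of its Lgr5-positive and 2 of its Lgr5-negative arrays were well above background, and pair 3 differed by -0.11. The list of cysteine cathepsins and cystatins had 10 tested genes, 1 of them the aspartic protease Ctsd (-0.16). Of the 10, 4 fell and 0 rose (median -0.47). They were the proteases Ctss (-1.27), Ctsk (-1.27) and Ctsh (-0.98) and the inhibitor Cst6 (-1.19), with adjusted p between 0.0037 and 0.023. Ctss is known from antigen-presenting cells and Ctsk from osteoclasts and fibroblasts. Leukocyte markers had a median difference of 0.13, with 2 of 9 tested lower with the block. Of 10 tested fibroblast markers 5 were lower and 1 higher with the block. The part of such cells in these falls was not tested.

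Procollagen processing had 1 rise and 2 falls among 10 tested genes with the block, beside the same 2.1% and 5.61% of all genes. Bmp1, the C-proteinase that complements Adamts2 at the other end of procollagen, rose by 0.66 (SE 0.15, adjusted p = 0.042 with the block). Its enhancer Pcolce was at -0.83 (adjusted p = 0.017 with the block), and the substrate Col3a1 at -0.53 (adjusted p = 0.041 with the block). Of 5 tested ADAMTS-like proteins, which lack the protease domain, Adamtsl4 rose (0.61, adjusted p = 0.026 with the block). None of 5 tested hyalectans, the proteoglycans that Adamts4 and Adamts9 cut, and link proteins passed, and Hapln4 had the lowest p at 0.15 (adjusted p = 0.564 with the block).

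Among 8 tested thrombospondin receptors and relatives, Cacna2d1, a calcium channel subunit that binds thrombospondins at synapses, rose with the block (0.73, adjusted p = 0.045). Cd47 fell (-1.02, adjusted p = 0.036), and the pentameric relative Comp was at least 2.17-fold lower (adjusted p = 0.014 with the block, 0.285 with the group alone). Comp was well above background on all 3 Lgr5-negative and on none of the Lgr5-positive arrays, so it passed the filter through the higher group alone and has only this bound, taken from the Cy5 channel and open to dye bias. Of 12 tested partners and activators of ADAMs, Tspan33, a tetraspanin that escorts Adam10, fell by 0.76 and Pcsk6, a proprotein convertase, by 0.95 (adjusted p = 0.014 and 0.035 with the block). Of 7 tested further inhibitors and cofactors Lcn2, which binds Mmp9, rose with the block (0.62, adjusted p = 0.032). Of 7 tested other metalloproteinases, Cpe, a carboxypeptidase that trims hormone precursors, fell by 2.61 (SE 0.15, adjusted p = 7.7e-04 with the block; 0.085 with the group alone).

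**Figure D4:**
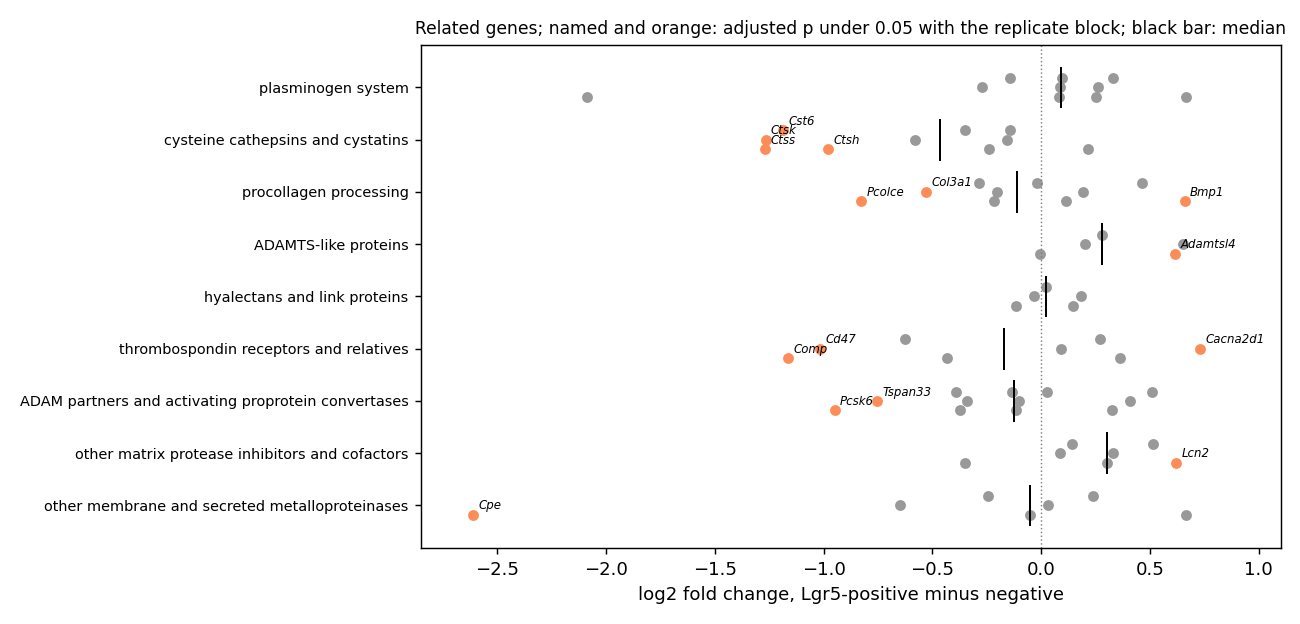
Log2 fold change (x axis) of the tested genes of 9 lists of related function (y axis); orange points with names pass with the replicate block, and black bars are medians. In the plot 4 cathepsin and cystatin genes fall, Cpe has the lowest value at -2.61, and the plasminogen and hyalectan lists have no passing gene.

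Calls near the threshold moved with the settings. With the group alone, the call of Mmp15 was kept in 3 of 8 other settings that keep all arrays. That of Adamts2 was kept in 2 of 9. Thbs3, without a call there as reported, also passed in 2 of 9 (lowest limma adjusted p = 0.021). When single arrays were left out, the calls of Mmp15 and Adamts2 were each kept only without Lgr5-negative replicate 1 (adjusted p = 0.031 and 0.048). In the block fit the calls of Adamts2, Thbs3, Mmp3 and Adam10 were present in 9 of 9 settings with all arrays. Those of Mmp2 were present in 8 of 9, Adamts4 in 7 of 9, Mmp15 in 6 of 8 and Adam19 in 6 of 9. Unlike the counts for the group alone, these include the reported block fit itself. Median centring in place of loess lowered the rises, to 0.89 for Thbs3, 0.70 for Adamts2, 0.25 for Mmp2 and 0.14 for Adam19, the last 2 without a call (adjusted p = 0.167 and 0.414), and took Adam15 to -0.99 with a call in the block fit (adjusted p = 0.0019). Timp2, Timp3, Timp4, Thbs2, Thbs4, Mmp9 and Adamts9, without a call as reported, each passed in 1 setting of the block fit with all arrays. Their lowest limma adjusted p-values lay between 0.0090 (Adamts9) and 0.025 (Thbs2). Without the replicate 2 pair Mmp3 (adjusted p = 0.070), Adam10 (0.135) and Mmp2 (0.157) no longer passed.

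**Figure D5:**
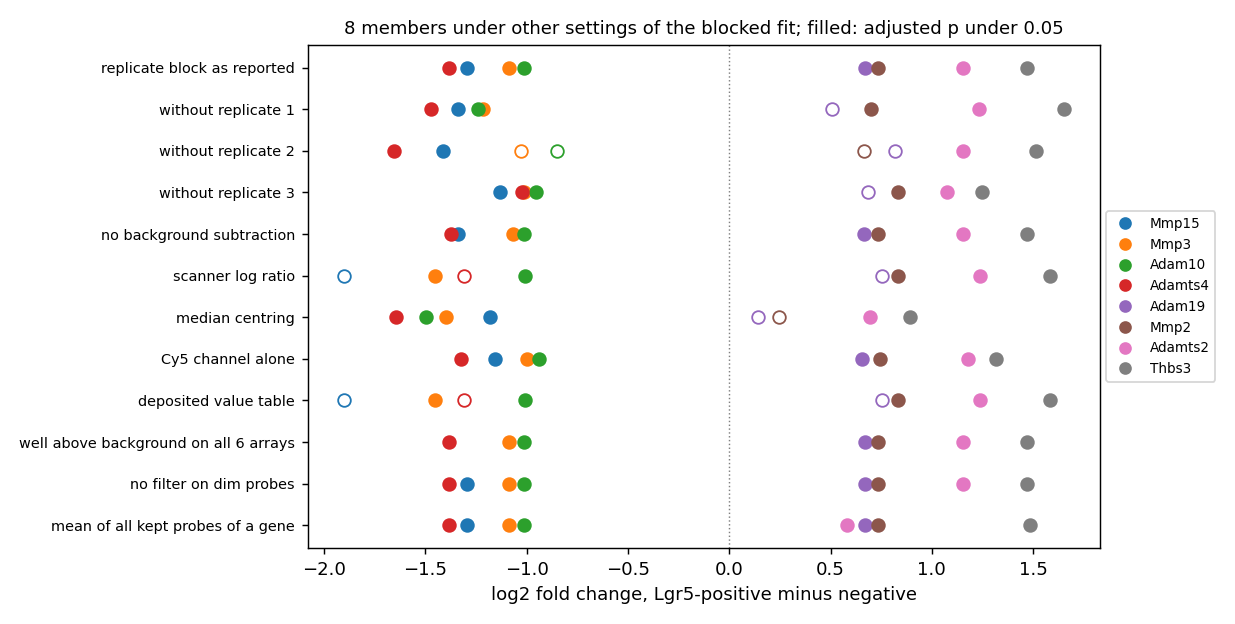
Log2 fold change (x axis) of the 8 genes under the replicate block as reported and under 11 other settings of that fit (y axis); filled points have an adjusted p under 0.05. No gene changes sign, and Adam19 and Mmp2 move closest to 0 under median centring.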

How the data were processed

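RNA of 3 Lgr5-positive and 3 Lgr5-negative samples was hybridised to 6 two-colour arrays on 1 slide. The authors deposited scanner output of Agilent Feature Extraction, version 11.0 in the submitters' processing notes and 11.0.1.1 per the file headers, holding spot and background intensity and a log10 ratio of Cy5 over Cy3. A deposited value table holds log2 ratios, with each probe at a median of 0 over the 6 arrays, from the values themselves. Of its values 81.6% to 83.2% lay within 0.001 of the likewise centred scanner ratio. Its column medians were -0.0016, 0.031 and 0.018 for the Lgr5-positive and 0.0064, -0.017 and -0.048 for the Lgr5-negative arrays. What set the other values apart is not known, and the table served as an alternative only.

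Median signals were corrected by normexp (offset 50) and loess within arrays in limma 3.58.1 (R 4.3.3). Control and outlier spots had weight 0 and were left out. The files hold 55681 probes, of which 34552 passed the filter of Cy5 well above background on at least 3 arrays. The brightest probe stood for a gene, and 10 genes with an outlier flag were dropped. Probes were named through RefSeq transcripts (21717 of 23173 accessions matched, GRCm38.p6), while the files use mm9. The printed coordinates therefore come from the promoter table, and the order of neighbouring genes from RefSeq gene positions.

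The 15680 genes were tested with lmFit and eBayes, two-sided, Benjamini-Hochberg adjusted, at 0.05, with the group as the only term. Same-numbered arrays deviated together from their group means (correlations across genes of 0.810, 0.819 and 0.675, each over the 0.1 used as the criterion), so the replicate number as a block gives the second value. The code was tested on simulated data. The number of arrays limits the precision, and dyes were not swapped.

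Members named with every array's value are the TIMPs, the thrombospondins, each gene past the threshold in either fit and the 2 with the lowest p of each functional group; others are given by value or range. From the related lists, passing genes are named, or else the 1 with the lowest p. Members and lists were chosen with earlier results of these data known. Alternatives were tried for background, normalization, channel, value table, filter, probe averaging, weights, block and arrays left out.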

Additional observations from a re-analysis of the deposited data

How the results depend on the processing

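With the replicate block the count of passing genes was 1210 over all genes and 8 over the members, and the block changed no call of a named member other than those given in the report. In the fit with the group alone, 78, 64, 9, 92, 66, 44, 75, 109 and 312 genes passed without background subtraction, with the scanner's ratio, median centring, Cy5 alone, the deposited table, probes above background on all 6 arrays, no filter, the mean of probes and array weights. The members that passed then numbered 0, 0, 0, 0, 0, 0, 2, 2 and 3. Their median moved to 0.097 with the scanner's ratio and with the deposited table and to -0.158 with median centring. Leaving out single arrays gave 0 to 371 genes, 0 to 2 members and a median of 0.0037 to 0.066; the count over all genes was 0 without Lgr5-positive replicate 1 or 3.

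With the block and, as alternatives chosen after seeing the data, another setting, the counts over all genes and over the members were 1193 and 8 without background subtraction, 738 and 5 with the scanner's ratio, 5790 and 17 with median centring, 1298 and 8 with Cy5 alone, 763 and 5 with the deposited table, 1098 and 7 above background on all 6 arrays, 1307 and 8 with no filter, and 1116 and 8 with the mean of probes. Median centring gave 128 higher and 5662 lower genes (330 and 880 as reported). Leaving out pair 1, 2 or 3 gave 1397, 326 and 854 genes, 4 to 9 members and a median of 0.0036 to 0.072, with the lowest median and fewest members without pair 2.

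No called member changed sign. Uncalled values did under median centring, the same with and without the block: Adam11 -0.16, Timp1 -0.22, Mmp23 -0.17, Adamts14 -0.15, Mmp11 -0.039 and Thbs1 -0.28. Thbs1 was -0.13 with array weights, -0.037 and -0.11 without Lgr5-positive replicates 2 and 3, -0.40 without Lgr5-negative replicate 1 (0.63 at most, without Lgr5-negative replicate 2), and -0.017 with the block without pair 3. Adam11 was -0.054 without Lgr5-positive replicate 1 and -0.027 without Lgr5-negative replicate 2 (0.68 at most). Thbs2 was 0.013 without Lgr5-positive replicate 3 and 0.022 in the blocked fit without pair 3, and Timp3 0.051 without Lgr5-negative replicate 3 (-0.44 at the lowest) and 0.0031 in that blocked fit. The cause was not tested. Mmp15 has no value where all 6 arrays must be above background. A slide block was not run, since all arrays share 1 slide. Dim probes limit Mmp9, Mmp15 and Thbs4, whose Lgr5-positive signal was partly at background.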
